A study of Mus musculus with 11 samples.

Results

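The mouse mitochondrial genome encodes 37 genes, and all 37 were found in the table of transcript levels by symbols that begin with mt-, among 52143 genes in all. They are 13 messenger RNAs, 2 ribosomal RNAs and 22 transfer RNAs. Their levels were followed in RAW cells, a mouse macrophage-type line, that carried a short hairpin RNA against GIV (shGIV) or a control hairpin (shC). GIV, also called Girdin, is the product of Ccdc88a, and the study asks what it does in the macrophage response to lipopolysaccharide (LPS), a bacterial cell wall component. The groups were shGIV cells after 5 h of LPS at 100 ng/ml (3 libraries), shGIV cells at 0 h (3 libraries), shC cells after 5 h of LPS (1 library, replicate 2) and shC cells at 0 h (2 libraries, replicates 1 and 3). All groups share the cell line and a hairpin. Replicate 3 of shC cells with LPS was not analysed here, and the library labelled replicate 2 of shC cells at 0 h was left out. Separate cultures behind the replicates are not stated in the labels, nor whether a hairpin line is 1 clone, so p-values measure only the spread between these libraries.

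Mitochondrial DNA is read from both strands into long precursors. Transfer RNAs sit between most of the other genes, and their removal releases the messenger and ribosomal RNAs. The messenger RNAs encode core subunits of complexes I, III, IV and V of oxidative phosphorylation, and the ribosomal RNAs form the mitochondrial ribosome that translates them. In macrophages, LPS is known to shift energy metabolism away from oxidative phosphorylation and toward glycolysis.

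Levels are TPM, the length-corrected share of each transcript scaled so that a library adds up to 1000000, so the depth of each library is unknown. Changes are differences of log2(TPM + 1), which understate the change of transcripts near 0. In bulk RNA, fewer cells of a type and less RNA per cell cannot be told apart. Ccdc88a was at 3.08, 2.62 and 3.39 TPM in shGIV cells with LPS, against 5.77 TPM in the shC library with LPS. At 0 h it was at 6.93, 5.31 and 5.58 TPM in shGIV cells, against 10.0 and 7.69 TPM in shC cells. The depleted libraries lay below the control libraries at both times, but neither difference passed the test across all genes (limma adjusted p = 0.0681 with LPS and 0.232 at 0 h). Of 10 macrophage markers 9 exceeded 1 TPM, with a sum of 12269 to 19787 TPM. The 24 markers of other cells summed to 5.54 to 7.14 TPM in shGIV cells with LPS and 1.86 to 2.46 TPM at 0 h. In shC cells they summed to 4.36 TPM with LPS and 2.20 to 2.66 TPM at 0 h, 3 of them being at 0 in all. Among them Xcr1 was at 4.23, 3.74 and 4.01 TPM in shGIV cells with LPS, against 0.119, 0.066 and 0.059 TPM at 0 h. In shC cells Xcr1 was at 2.09 TPM with LPS, against 0.095 and 0.067 TPM at 0 h. The part of these markers in the results was not tested. In the library left out, mitochondrial RNA made up 0.263% of TPM and nuclear coding RNA 7.70%, against 3.61% to 8.32% and 67.03% to 77.72% in the 9 libraries used.

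Transfer RNA genes are 59 to 75 bases long, shorter than the 100-base reads. Of the 22, 6 were listed at 0 in all 9 libraries, and only mt-Tp and mt-Ts1 were above 0 in all 9. The sequences of these 2 are shown with mt-Tf, listed at 0 throughout, and mt-Tt, which adjoins mt-Tp on the opposite strand and was above 0 in 1 library. They are the GENCODE M21 transcripts on GRCm38, on the mitochondrial chromosome (MT), 5′ to 3′, with the anticodon in capitals.
mt-Tp: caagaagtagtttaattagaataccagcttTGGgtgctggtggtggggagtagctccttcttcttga
mt-Ts1: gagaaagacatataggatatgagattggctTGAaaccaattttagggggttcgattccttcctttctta
mt-Tf: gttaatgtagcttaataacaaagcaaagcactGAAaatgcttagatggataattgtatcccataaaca
mt-Tt: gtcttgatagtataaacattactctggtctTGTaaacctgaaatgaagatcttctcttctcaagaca
The genes mt-Tp (MT:15356-15422) and mt-Ts1 (MT:6870-6938) lie on the minus strand, and mt-Tf (MT:1-68) and mt-Tt (MT:15289-15355) on the plus strand.

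A second set of sequences bears on how the messages were counted. Kallisto assigns reads by short words, 31 bases by default, and a stretch of chromosome 1 carries near-identical copies of several mitochondrial messages. Of the 13 messages, 5 shared at least 98% of their 31-base words with annotated nuclear transcripts, whereas mt-Nd1 shared none. The first 60 bases of mt-Nd3 (MT:9459-9518, plus strand) and of its copy Gm28438 (chr1:24613060-24613119, minus strand) hold the only difference within the 345 bases that align, T3C, counted from the first base of mt-Nd3 and shown in capitals.
mt-Nd3: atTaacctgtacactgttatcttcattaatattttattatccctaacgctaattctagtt
Gm28438: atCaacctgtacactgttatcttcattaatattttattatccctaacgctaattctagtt

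Mitochondrial RNA made up 4.78%, 3.61% and 3.94% of TPM in shGIV cells with LPS, against 8.08%, 6.75% and 6.47% in shGIV cells at 0 h. In shC cells it made up 4.04% with LPS, against 8.32% and 5.23% at 0 h. Every library with LPS lay below every library of the same hairpin at 0 h. Messenger RNA made up 94.6% to 98.4% of the mitochondrial total in the 9 libraries. These sums are descriptions, without a test.

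**Figure D1:**
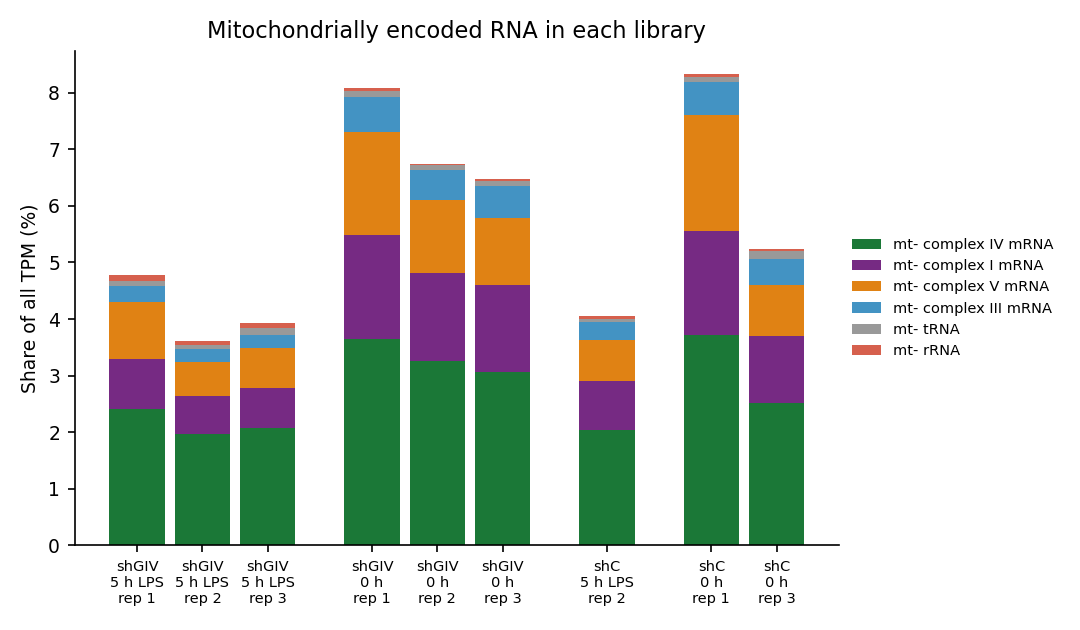
Stacked bars give the share of all TPM (%) taken by mitochondrially encoded RNA in each library, divided by the complex that the messages belong to, with transfer and ribosomal RNA on top. The libraries with LPS sit at 3.61% to 4.78%, and those at 0 h at 5.23% to 8.32%.

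The messages differed widely in level, although all but mt-Nd6, on the minus strand, come from shared precursors. Averaged over the 9 libraries, mt-Co1, the catalytic core of complex IV, was highest at 10447 TPM and mt-Nd5, a proton-pumping subunit of complex I, lowest at 860.5 TPM, a 12.1-fold range. The 3 complex IV messages mt-Co1, mt-Co2 and mt-Co3 averaged 10447, 9136 and 7868 TPM, and mt-Atp6 of complex V averaged 6825 TPM. Next came mt-Atp8 at 4640 TPM and mt-Cytb, the complex III subunit, at 4219 TPM. The 7 complex I messages followed, with mt-Nd1 at 3033, mt-Nd4l at 2577, mt-Nd2 at 1862, mt-Nd4 at 1677, mt-Nd6 at 1223, mt-Nd3 at 1047 and mt-Nd5 at 860.5 TPM. In shGIV cells at 0 h, neighbours in this order could not all be separated: mt-Co1 averaged 11904 ± 1136 TPM and mt-Co2 11187 ± 406 TPM (SD, n = 3 each). mt-Atp8, 204 bases long, overlaps mt-Atp6 by 43 bases, mt-Nd4l overlaps mt-Nd4 by 7, and mt-Nd6 overlaps mt-Nd5 by 14 on the opposite strand. Reads in those bases may count for either gene, and the strand setting of the counting is not given in the sources used here. The order also leaves out what was assigned to the chromosome 1 copies, Gm28438 averaging 646.8 TPM beside mt-Nd3.

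With LPS, the mitochondrial messages fell in shGIV cells while both ribosomal RNAs rose. Of the 13 messages 12 fell by limma at an adjusted p of 0.05 over the 13711 genes tested, and none rose. Across all genes tested, 59.7% were called lower and 15.8% higher, and the median change of all genes was -0.54 on the log2 scale. The median change of the 13 messages was -1.05. With TMM scaling, which puts the median of all genes at 0.00, 2 messages were lower, mt-Cytb and mt-Nd2. Scaling by nuclear coding genes gave 11 of the 12 lower, without mt-Co1. Quantile normalization gave 10 of the 12 lower, without mt-Co1 and mt-Co2, and added mt-Atp8. Under all 4 scalings, 12 of the 13 messages lay below the median of all genes, and mt-Co1 lay above it. TMM scaling and scaling by nuclear coding genes apply a single factor per library, so they shift each message and that median nearly alike. Only quantile normalization could change this order much.

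Among complex I messages, mt-Nd3 had the largest fall. It was at 776.0, 419.7 and 539.7 TPM in shGIV cells with LPS, against 2239, 1389 and 1176 TPM in shGIV cells at 0 h. The groups did not overlap, and the log2 change was -1.46 ± 0.30 (SE, limma adjusted p = 0.00244). mt-Nd2 had 1325, 900.1 and 979.1 TPM with LPS, against 2964, 2362 and 2425 TPM at 0 h, a log2 change of -1.29 ± 0.19 (adjusted p = 0.000374). mt-Nd1, which shares no word with a nuclear transcript, was at 2320, 1617 and 1786 TPM with LPS, against 4726, 3665 and 3696 TPM at 0 h. In both the groups stand apart, every library with LPS being below every library at 0 h. mt-Nd4l lay at 1389 to 1462 TPM with LPS, against 3118 to 3604 TPM at 0 h, and mt-Nd4 at 899.1 to 1277 TPM, against 1913 to 2639 TPM. mt-Nd5 lay at 542.5 to 681.1 TPM with LPS, against 1020 to 1180.3 TPM at 0 h, and mt-Nd6 at 728.7 to 975.5 TPM, against 1429 to 1627 TPM. mt-Nd4l fell by 1.25, mt-Nd1 by 1.08, mt-Nd4 by 1.05, mt-Nd5 by 0.86 and mt-Nd6, the only message on the minus strand, by 0.83 on the log2 scale.

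mt-Cytb encodes cytochrome b, the only complex III subunit made in mitochondria. It stood at 2689, 2207 and 2373 TPM in shGIV cells with LPS, against 6225, 5358 and 5560 TPM at 0 h. The difference was far larger than the spread within either group, with a log2 change of -1.24 ± 0.11 (SE, limma adjusted p = 1.73e-05).

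mt-Co1 and mt-Co2 of complex IV had the smallest falls among the 12 called messages. mt-Co1 was at 10027, 7934 and 8403 TPM in shGIV cells with LPS, against 13181, 11527 and 11003 TPM at 0 h, a log2 change of -0.44 ± 0.13 (SE, limma adjusted p = 0.0164). It was not called under the other 3 scalings, at 0.23 with TMM scaling, -0.11 with quantile normalization (adjusted p = 0.596) and -0.33 with scaling by nuclear coding genes (adjusted p = 0.0868). Leaving out single libraries ended its call in 3 of 9 cases. mt-Co2 lay at 6461 to 7519 TPM with LPS, against 10773 to 11584 TPM at 0 h, and mt-Co3 at 5202 to 6627 TPM, against 8899 to 11652 TPM. mt-Co2 fell by 0.68 and mt-Co3 by 0.83, but with TMM scaling they were at -0.01 and -0.16 and were not called.

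In complex V, mt-Atp6, part of the proton channel, was at 6061, 4239 and 4635 TPM in shGIV cells with LPS, against 10349, 8061 and 7494 TPM at 0 h. It fell by 0.80 on the log2 scale, and with TMM scaling it was at -0.13 and not called. mt-Atp8, an accessory subunit, was at 4041, 1927 and 2464 TPM in shGIV cells with LPS, against 7726, 4941 and 4444 TPM at 0 h. Its spread was the widest of the messages, and its log2 difference of -1.05 ± 0.49 (SE) did not pass the test (limma adjusted p = 0.0871). With quantile normalization it passed, at -1.20 (adjusted p = 0.0142).

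**Figure D2:**
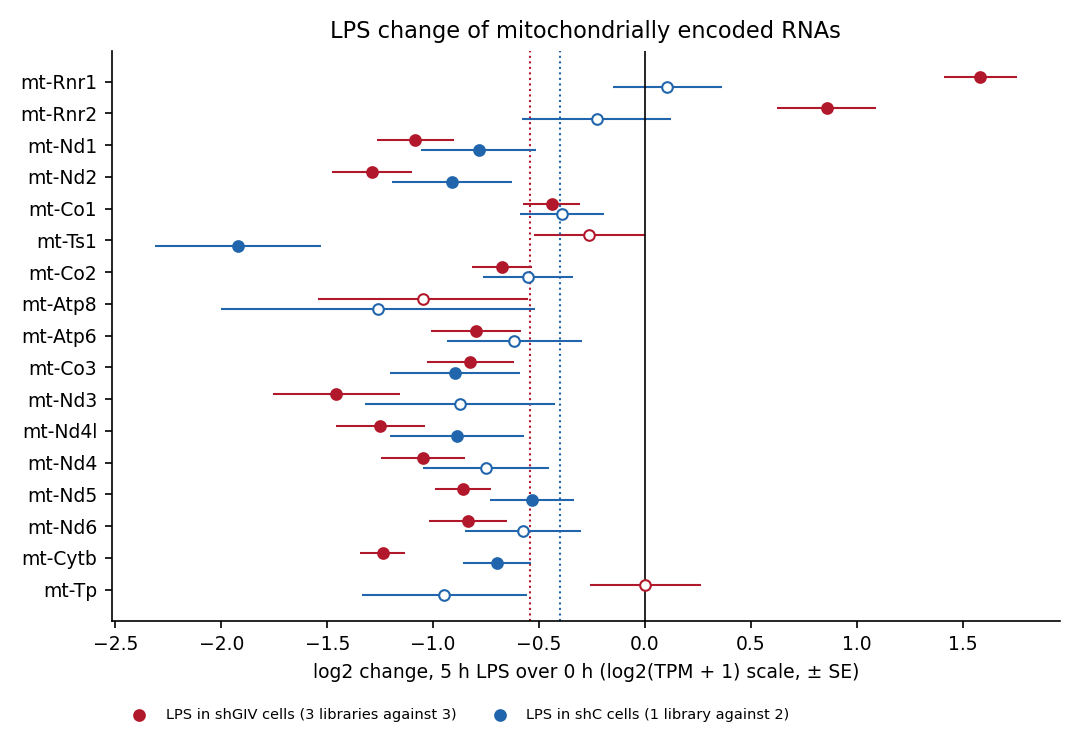
Points give the log2 change with LPS (5 h over 0 h, log2(TPM + 1) scale) with its SE from limma, in shGIV cells (upper) and shC cells (lower), in genome order, for the messages, the ribosomal RNAs and the 2 transfer RNAs above 0 in all libraries. Filled points passed an adjusted p of 0.05, open points did not, and dotted lines mark the median of all genes, -0.54 in shGIV cells and -0.40 in shC cells.

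The 2 ribosomal RNAs went the other way. mt-Rnr1, the RNA of the small subunit (MT:70-1024, plus strand), was at 864.8, 628.9 and 796.2 TPM in shGIV cells with LPS, against 307.3, 232.2 and 224.1 TPM in shGIV cells at 0 h. The groups did not overlap, and its log2 change was 1.58 ± 0.17 (SE, limma adjusted p = 6.44e-05). mt-Rnr2, the RNA of the large subunit (MT:1094-2675, plus strand), was at 260.7, 177.6 and 208.7 TPM with LPS, against 149.3, 108.0 and 99.4 TPM at 0 h, a log2 change of 0.86 ± 0.23 (adjusted p = 0.0102). Both were higher under all 4 scalings, mt-Rnr1 by 1.44 to 2.25 and mt-Rnr2 by 0.81 to 1.52. Leaving out each library in turn ended neither call.

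The libraries were depleted of ribosomal RNA before sequencing, so the levels of mt-Rnr1 and mt-Rnr2 are what remained. Genes annotated as nuclear ribosomal RNA summed to 3028, 4239 and 3840 TPM in shGIV cells with LPS, against 2648, 4293 and 2539 TPM at 0 h, and these groups overlap. The ratio of mt-Rnr1 to that sum was 0.286, 0.148 and 0.207 with LPS, against 0.116, 0.0541 and 0.0882 at 0 h, and these groups stand apart. The same ratio for mt-Rnr2 was 0.0861, 0.0419 and 0.0544 with LPS, against 0.0564, 0.0252 and 0.0392 at 0 h, and these groups overlap. The ratio of mt-Rnr1 to mt-Rnr2 was 3.32 to 3.82 in shGIV cells with LPS and 1.66 to 2.34 in the other 6 libraries. The part of depletion efficiency in these levels was not tested.

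**Figure D3:**
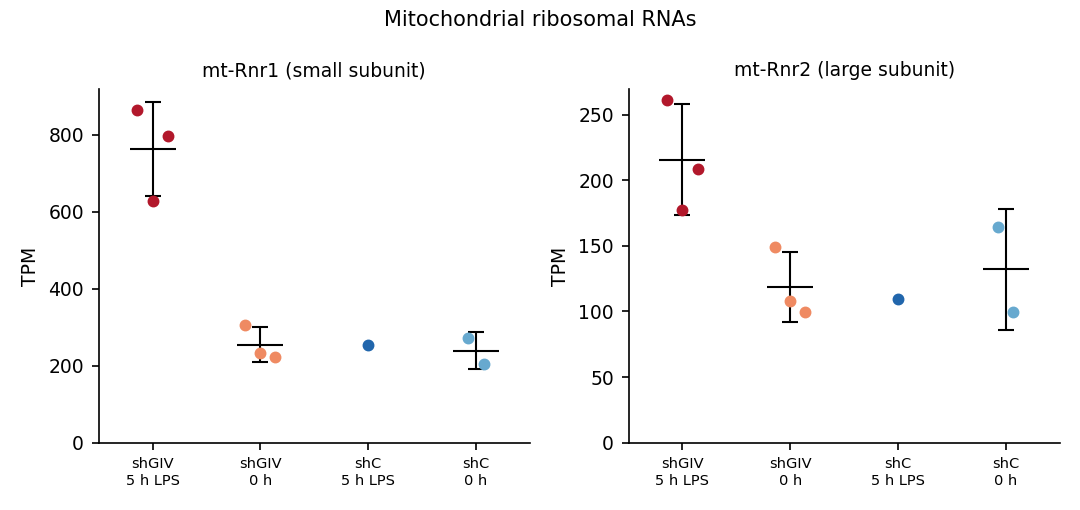
Points give TPM of mt-Rnr1 (left) and mt-Rnr2 (right) in each library by group, with the group mean and SD where there is more than 1 library. The 3 libraries of shGIV cells with LPS, at 628.9 to 864.8 TPM for mt-Rnr1, lie above the other 6, at 205.6 to 307.3 TPM.

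In shC cells neither ribosomal RNA passed the test. mt-Rnr1 was at 255.0 TPM in the shC library with LPS, against 272.9 and 205.6 TPM in shC cells at 0 h, a log2 difference of 0.11 ± 0.26 (SE, limma adjusted p = 0.751). mt-Rnr2 was at 109.2 TPM with LPS, against 164.6 and 99.6 TPM at 0 h, a difference of -0.23 ± 0.35 (adjusted p = 0.601). In both cases the lone library with LPS lay between the 2 at 0 h.

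In shC cells the share of messages called lower with LPS was near that of all genes. All 13 had values below 0, with a median of -0.75, and 6 were called lower and none higher, against 44.1% of all genes called lower and 14.8% called higher. The 6 were mt-Nd2 at -0.91, mt-Co3 at -0.90, mt-Nd4l at -0.89, mt-Nd1 at -0.79, mt-Cytb at -0.70 and mt-Nd5 at -0.53. mt-Cytb stood at 3180 TPM in the shC library with LPS, against 5710 and 4671 TPM at 0 h, and it alone of the 6 kept its call when any other library was left out. mt-Nd2 was at 1202 TPM with LPS, against 2731 and 1867 TPM at 0 h, and mt-Co3 at 4766 TPM, against 11618 and 6767 TPM. The library with LPS was below both others for each of these 3 messages. With TMM scaling none of the 13 was called, and the median was -0.26. The comparison rests on 1 library with LPS, given the spread of the other groups, and on 2 at 0 h that differ, mt-Atp8 being at 10925 and 2929 TPM in them. Without shC replicate 1 at 0 h, 4 mitochondrial genes of any kind were called, and without replicate 3, 15, against 9 with both.

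Transfer RNAs were mostly too low to compare. Of the 22, 12 passed the filter, and apart from mt-Tp and mt-Ts1 none exceeded 17.4 TPM in any library. mt-Tp, which reads proline codons, was at 853.2, 589.2 and 1017 TPM in shGIV cells with LPS, against 1013, 617.2 and 813.0 TPM at 0 h, and the groups overlapped. Its log2 difference was 0.00 ± 0.26 (SE, limma adjusted p = 0.994), a value above the -0.54 of the median gene. In shC cells mt-Tp was at 546.4 TPM with LPS, against 858.6 and 1295 TPM at 0 h, a difference of -0.95 ± 0.39 (adjusted p = 0.0695). mt-Ts1, a serine transfer RNA, was at 47.0, 38.5 and 77.0 TPM in shGIV cells with LPS, against 48.2, 64.2 and 78.5 TPM at 0 h, and did not pass the test (adjusted p = 0.388). It fell in shC cells, with 21.0 TPM with LPS, against 78.8 and 85.9 TPM at 0 h, a log2 change of -1.92 ± 0.39 (adjusted p = 0.00383). mt-Tm was called lower with LPS in shGIV cells and was listed at 0 in 3 of the 9 libraries. mt-Ta, called lower with LPS in shC cells, was above 0 only in the 2 shC libraries at 0 h and passed the filter on low values only through them, so its difference from that group was built in. mt-Tg, called higher there, was also above 0 in only 2 libraries, 1 of them the shC library with LPS.

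No message or ribosomal RNA was called by limma with depletion of GIV at 0 h, and none had an unadjusted p under 0.05. The 13 messages differed by -0.03 to 0.46 on the log2 scale, with a median of 0.14, while mt-Rnr1 differed by 0.09 ± 0.19 and mt-Rnr2 by -0.13 ± 0.26 (SE, limma). Across all genes 1.22% were called. mt-Ta was the 1 member among them, listed at 0 in all 3 shGIV libraries, against 2.19 and 4.77 TPM in shC cells, and its call follows from the filter, which it passed only through those 2 shC libraries. The smallest SE was that of mt-Cytb, at 0.14 ± 0.12.

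With LPS, mt-Rnr1 was the only mitochondrial gene called for depletion. At 763 ± 121 TPM in shGIV cells (SD, n = 3), it was 2.99-fold the 255.0 TPM of the single shC library, a log2 difference of 1.57 ± 0.24 (SE, limma adjusted p = 0.0153), where 0.89% of all genes were called higher. The call held without each other library in turn, with adjusted p of 0.0162 to 0.0489, but no comparison is possible without the shC library. It ended when only the 2 groups were fitted (adjusted p = 0.0508) and when the library labelled replicate 2 of shC cells at 0 h was included. mt-Rnr2 was 1.98-fold the shC level, a difference of 0.96 ± 0.33 that did not pass. The transfer RNA mt-Ts1 was 2.58-fold its shC level, a difference of 1.265 ± 0.37 that did not pass either. The 13 messages differed by -0.40 to 0.26, with mt-Cytb lowest at -0.40 ± 0.15 (adjusted p = 0.183), and none was called, mt-Cytb being the 1 message with an unadjusted p under 0.05.

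The LPS responses of the 2 lines were also compared directly. No mitochondrial gene passed this test by limma, where 0.226% of all genes were called, and 6 had an unadjusted p under 0.05. Of these, mt-Rnr1 came closest among messages and ribosomal RNAs, with a difference of 1.48 ± 0.31 (SE, adjusted p = 0.0906, unadjusted p = 0.00168). mt-Rnr2 had 1.09 ± 0.42 (adjusted p = 0.247) and mt-Cytb -0.54 ± 0.19 (adjusted p = 0.22), both with an unadjusted p under 0.05. These comparisons share libraries, and so their values are not independent.

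Levels were also rescaled to the mitochondrial total, and 1 of the 13 messages was called with LPS in shGIV cells on that scale. mt-Co1 made up 20.97%, 21.96% and 21.35% of mitochondrial TPM in shGIV cells with LPS, against 16.32%, 17.09% and 17.0% at 0 h. mt-Cytb made up 5.62%, 6.11% and 6.03% with LPS, against 7.71%, 7.94% and 8.59% at 0 h, and mt-Nd2 2.77%, 2.49% and 2.49%, against 3.671%, 3.501% and 3.748%. None of these groups overlap, but mt-Co1, mt-Cytb and mt-Nd2 did not pass the test (limma adjusted p = 0.158, 0.0969 and 0.0635). When messages were summed with their chromosome 1 copies, mt-Nd2 passed on this scale (limma adjusted p = 0.0403). The members called were mt-Rnr1, mt-Rnr2 and mt-Nd3, where 39.4% of all genes were called. mt-Rnr1 made up 1.81%, 1.74% and 2.02% with LPS, against 0.381%, 0.344% and 0.346% at 0 h, a log2 change of 2.37 ± 0.21 (SE, adjusted p = 4.16e-06). mt-Rnr2 changed by 1.64 ± 0.20 and mt-Nd3 by -0.67 ± 0.24 (adjusted p = 0.0439), a call that 6 of 9 omissions of a library ended. The 7 complex I messages together made up 18.0% to 18.4% with LPS and 22.8% to 23.6% at 0 h, and the 3 complex IV messages 50.6% to 54.7% and 45.1% to 48.4%. In the shC library with LPS, complex I messages made up 21.16%, against 22.13% and 22.73% at 0 h. There the complex IV messages made up 50.56%, against 44.65% and 47.97%. The mt-Cytb share in that library, 7.86%, lay between the 6.86% and 8.93% at 0 h.

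In shC cells mt-Rnr1 made up 0.631% of the mitochondrial total with LPS, against 0.328% and 0.393% at 0 h. Its difference of 0.81 ± 0.31 (SE, limma) was not called. mt-Rnr2 made up 0.2701% with LPS, against 0.1977% and 0.1905% at 0 h, and its difference of 0.47 ± 0.30 was not called either. No message was called there, where 19.9% of all genes were called. The members called were mt-Ta and mt-Tg, and that of mt-Ta again follows from the filter. Within the mitochondrial total no member was called for depletion at 0 h or with LPS, or for the difference of responses, where 0.00729%, 0.146% and 0% of all genes were called by limma and 1, 5 and 5 members had an unadjusted p under 0.05. For depletion with LPS, mt-Rnr1 had a difference of 1.55 ± 0.29 (adjusted p = 0.0812).

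**Figure D4:**
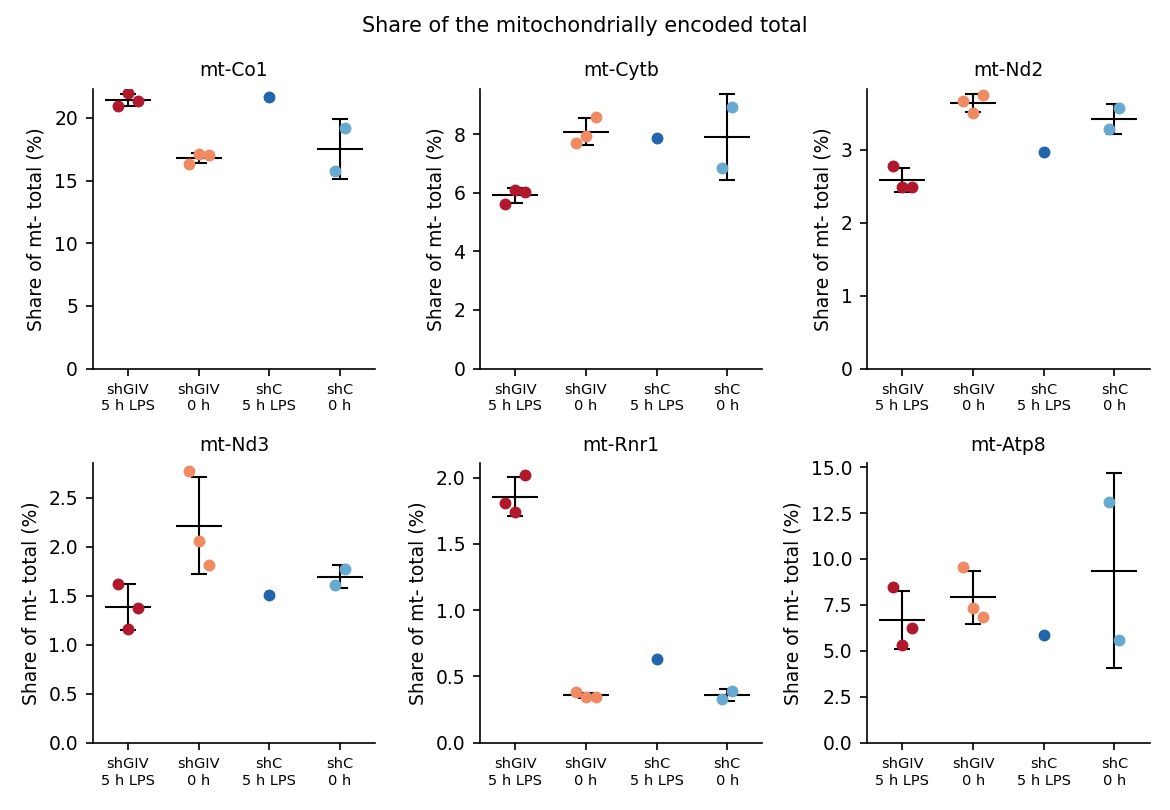
Points give the share (%) of the mitochondrially encoded TPM taken by 5 messages and mt-Rnr1 in each library by group, with the group mean and SD where there is more than 1 library. mt-Co1 and mt-Rnr1 take larger shares, and mt-Cytb, mt-Nd2 and mt-Nd3 smaller ones, in shGIV cells with LPS than at 0 h, while the shares of mt-Atp8 in shC cells at 0 h lie apart, at 13.1% and 5.60%.

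Within the 13 messages, the changes in shGIV cells ran with abundance, more abundant messages falling less (Spearman rho = 0.63 with the mean level). The same measure was 0.09 in shC cells. These are descriptions over 13 genes that share libraries and, apart from mt-Nd6, precursors. Correlation with gene length was 0.20 in shGIV cells and 0.52 in shC cells.

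Several message levels depend on how reads were divided with the chromosome 1 copies. Gm28661, identical to mt-Co2 over its 681 bases, was at 3.02 to 1554 TPM, and Gm10925, identical to mt-Atp6 over 678 bases, at 39.7 to 1586 TPM over the 9 libraries. The highest value of both was in replicate 1 of shC cells at 0 h. Gm28437, the copy of mt-Co3, was at 30.1 TPM in that library and at 1210 TPM in replicate 3. The most abundant copy was Gm29216, which aligns with 483 bases of mt-Co1 with 1 difference. It was at 2043 to 4312 TPM over the 9 libraries, a ratio to mt-Co1 of 0.155 to 0.474. Summed with Gm29216, mt-Co1 fell by 0.35 with LPS in shGIV cells (limma adjusted p = 0.0111). Gm28439 and Gm10222, copies of mt-Nd4 and mt-Nd4l, were listed at 0 in all 9. Gm28438, the mt-Nd3 copy shown above, fell with LPS by 1.57 in shGIV cells and by 1.40 in shC cells, beside its mitochondrial counterpart. Summing each message with its copy left 12 messages lower in shGIV cells and 7 in shC cells, mt-Nd3 being added there at -1.10 ± 0.41 (SE, limma adjusted p = 0.0477).

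**Figure D5:**
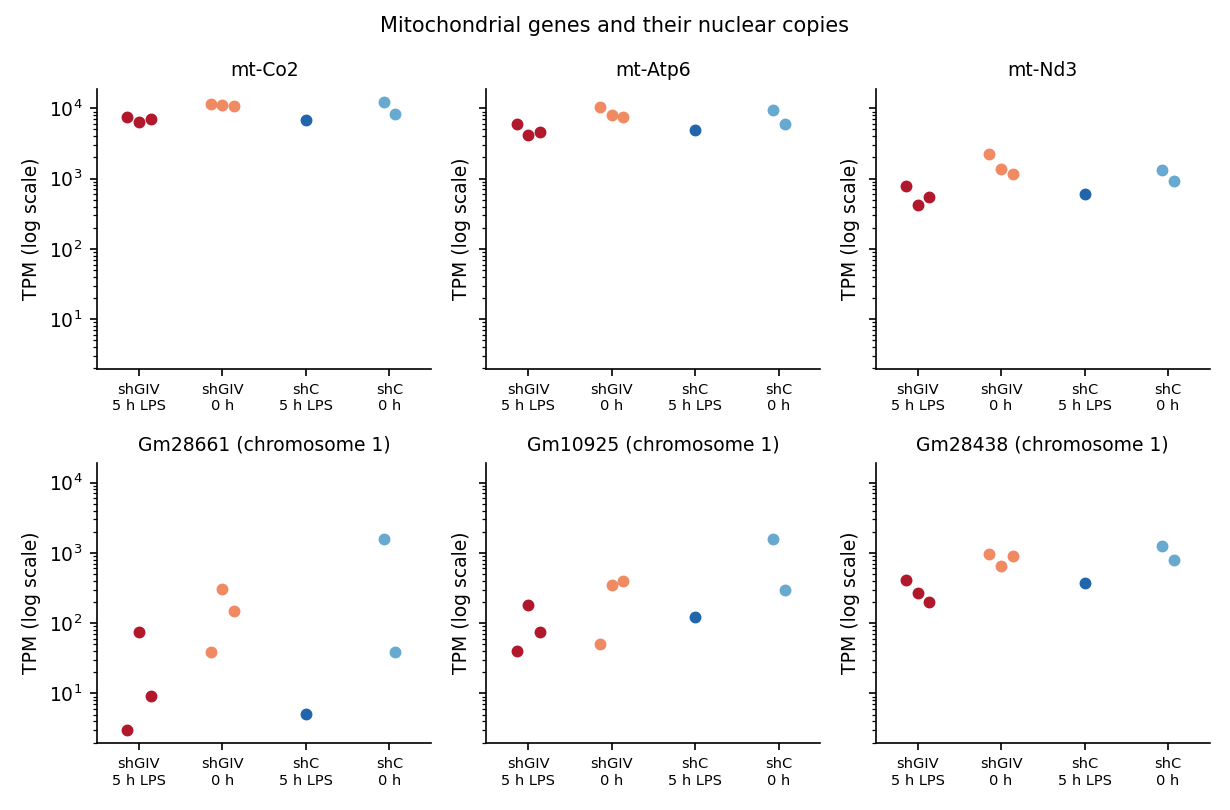
Points give TPM on a log axis in each library by group, for 3 mitochondrial messages (top) and their chromosome 1 copies (bottom). Gm28661 is at 39.2 and 1554 TPM in the 2 libraries of shC cells at 0 h, where mt-Co2 is at 8286 and 12408 TPM. In shGIV cells at 0 h mt-Nd3 lies at 1176 to 2239 TPM and Gm28438 at 648.0 to 959.7 TPM.

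Nuclear genes of the same machinery were counted beside all genes, of which 59.7% were lower and 15.8% higher with LPS in shGIV cells, and 32.6% lower and 34.5% higher with TMM scaling. In shC cells 44.1% of all genes were lower and 14.8% higher, and 25.2% lower and 28.3% higher with TMM scaling. Of 75 nuclear subunits of the oxidative phosphorylation complexes, 74 fell in shGIV cells and none rose, such as the complex II subunit Sdha by 1.21 and the complex I subunit Ndufs8 by 1.14 on the log2 scale. With TMM scaling 25 were higher, a share near that of all genes, and 12 lower. In shC cells 50 fell and none rose, against 13 higher and 4 lower with TMM scaling. Of 80 mitochondrial ribosomal proteins, 69 fell and 4 rose in shGIV cells, Mrps6 falling by 2.36 and Mrpl52 rising by 1.73, and TMM scaling gave 28 lower and 25 higher.

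Factors that copy and process mitochondrial RNA are read against the same shares of all genes. Of 19 genes of transcription and the nucleoid, 16 fell and 1 rose in shGIV cells, with the helicase Twnk at -1.85 ± 0.10 (SE, limma adjusted p = 1.57e-06), against 9 lower and 4 higher with TMM scaling. Of 28 genes of RNA processing and decay, 23 fell and 4 rose, against 16 lower and 6 higher with TMM scaling. For shC cells, with 1 library with LPS, genes were likewise named by the size of their change. Twnk was at -1.425 there, and Tfam, which packages the mitochondrial genome and starts its transcription, fell by 1.21. Pnpt1, an RNA-degrading enzyme of mitochondria, rose by 1.62 in shC cells. Among 17 mitochondrial tRNA synthetases 16 fell and none rose in shGIV cells, led by Vars2 at -2.48, against 11 lower and 2 higher with TMM scaling. Counts lower and higher were 12 and 0 of 14 genes of tRNA maturation, 13 and 0 of 13 translation factors and 6 and 1 of 9 regulators of biogenesis, the last near the share of all genes, and with TMM scaling 3 and 4, 8 and 2, and 4 and 4. With depletion of GIV at 0 h, 1.22% of all genes were called. Hsd17b10, a subunit of the enzyme that trims transfer RNA 5′ ends, was higher there by 0.48 ± 0.07 (SE, limma adjusted p = 0.0295). The mitochondrial ribosomal proteins Mrps6 and Mrpl53 were higher by 0.59 ± 0.06 (adjusted p = 0.0067) and 0.31 ± 0.05 (adjusted p = 0.0432). With TMM scaling 1 of the 80 mitochondrial ribosomal proteins was higher. With depletion under LPS, where 4.38% of all genes were lower, Yars2, a tyrosine tRNA synthetase, was lower at -0.58 ± 0.08 (SE, adjusted p = 0.00913), Rpusd3 at -0.62, Mrpl39 at -0.40 and Lrpprc, which stabilises mitochondrial messages, at -0.39. With TMM scaling or scaling by nuclear coding genes Yars2 alone of these 4 was still called, and with quantile normalization none was.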

How the data were processed

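Total RNA of RAW cells went through ribosomal depletion and a stranded library kit, and was read in pairs of 100 bases, per the labels. The authors made the deposited log2 values, log2(TPM + 1) for each gene, per the table's values, and kallisto 0.45.0 and GRCm38 are named, per the submitters' processing notes. The annotation release and strand setting are not given in the sources used here. Depth per library is unknown because TPM keeps no read total.

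The test covered 13711 genes, 27 of the 37 members among them, that reached 1 on the log2 scale in 2 or more of the 9 libraries. One model of the 4 groups was fitted with limma 3.58.1 in R 4.3.3, with a mean-variance trend, and the Benjamini-Hochberg adjustment ran over all genes, with a threshold of 0.05. A second fit scaled all genes by the mitochondrial total. Positions, sequences and 31-base words came from GENCODE M21. For the 6 listed symbols held by several genes, the gene with the highest mean was used. Named genes are every mt- gene, Ccdc88a and, per list, called members with the largest change. The fit was tested on simulated data. Alternatives covered filters, pseudocount, scalings (TMM computed from TPM), a replicate block, robust moderation, the groups fitted and each library left out. Scaling by nuclear coding genes used their summed TPM without the 100 most abundant of all genes. Members and lists were chosen with earlier results of these data known.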

Additional observations from a re-analysis of the deposited data

Results flagged for a closer look

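The library labelled replicate 2 of shC cells at 0 h, which no comparison uses, held more of both mitochondrial ribosomal RNAs than the other libraries of its group. Its mt-Rnr1 was at 597.5 TPM, against 272.9 and 205.6 TPM in replicates 1 and 3, and its mt-Rnr2 was at 916.0 TPM, against 164.6 and 99.6 TPM. The 13 messages were lower in this library, mt-Co1 being at 217.8 TPM. Genes annotated as nuclear ribosomal RNA summed to 35393 TPM, against 2410 to 5586 TPM in the 9 libraries used. The gene Mir6236 alone held 57.79% of TPM in this library, against 3.79% to 8.78% in the 9. The part of library composition in these values was not tested.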

How the results depend on the processing

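Counts here are of mitochondrial genes called by limma, and "within the total" means after scaling to the mitochondrial total. With the library labelled replicate 2 of shC cells at 0 h included, 0 were called for LPS in either line, for depletion at either time and, within the total, for LPS in either line. TMM scaling gave 4 for LPS in shGIV cells and 3 in shC cells. No filter gave 3 for LPS in shC cells and, within the total, 2 for depletion with LPS and 1 for the difference of responses. Fitting only the groups compared gave 0 for depletion at either time and, within the total, 6 for LPS in shGIV cells, 0 in shC cells, 2 for depletion at 0 h and 3 with LPS. A pseudocount of 0.1 gave 0 for depletion at 0 h and, within the total, 0 for LPS in shC cells. The stricter filter gave 0 for depletion at 0 h and, within the total, 5 for LPS in shGIV cells and 1 for depletion with LPS. Robust moderation gave, within the total, 1 for depletion at 0 h, 2 with LPS and 1 for the difference. A replicate block gave 0 for depletion at 0 h and, within the total, 10 for LPS in shGIV cells, 4 in shC cells and 1 for depletion with LPS. Same-numbered libraries correlated at -0.0013 to 0.0972 over 7 pairs, none over 0.1, and the 14 other pairs at -0.0972 to 0.0362. Of 8 libraries 6 correlated best with their own number, so whether the numbers pair the samples is not settled. As a share of mitochondrial and nuclear coding TPM, the mean was 5.39% in shGIV cells with LPS and 8.96% at 0 h.

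Signs turned for mt-Co1 with LPS in shGIV cells under TMM scaling, at 0.23 (adjusted p = 0.212). With the left-out library included, they turned for LPS in shC cells, at 1.30 for mt-Co3, 1.28 for mt-Cytb, 1.30 for mt-Nd1, 1.06 for mt-Nd2, 1.03 for mt-Nd4l, 0.89 for mt-Nd5 and 0.21 for mt-Ts1. Leaving out each library gave 14 to 17 for LPS in shGIV cells, 4 to 15 in shC cells, 0 to 1 for depletion at 0 h, 1 to 2 with LPS and 0 to 0 for the difference. Within the total these ranges were 2 to 6, 1 to 5, 0 to 0, 0 to 1 and 0 to 0. Comparisons that use the shC library with LPS cannot be estimated without it. Causes were not tested. Summing with nuclear copies was chosen after seeing the data, and within the total it gave 4 for LPS in shGIV cells. Of the values for single genes, 4536 kept their direction and side of the threshold, 112 lost a call, 92 gained one and 8 reversed.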
